A study of Drosophila melanogaster with 2 samples.

Results

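The 33 neuroblast and proneural genes described here were chosen by name, from their known roles in making the nervous system of the fly embryo. No measured value was used as a rule for the choice, but earlier results of these data were known when it was made. They are 33 of the 13945 protein-coding genes on the main chromosome arms. They comprise the 4 genes of the achaete-scute complex (ac, sc, l(1)sc and ase), the atonal relatives ato, amos and cato with the neurogenin homologue tap, and the Snail family genes sna, esg, wor and scrt. The list also holds the neuroectoderm factors SoxN, vnd, ind and Dr, the neuroblast factors dpn, cas, grh and klu, 6 genes of asymmetric division and daughter fate (pros, mira, insc, brat, numb and nerfin-1), and the 7 bHLH genes of the Enhancer of split complex. All 33 were found in the annotation of the genome build dm6.

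The study mapped where the fly protein CG6683 sits on chromatin in whole Drosophila melanogaster embryos. There was 1 group, with no untreated or otherwise contrasting group. Its embryos were of both sexes, pooled, and aged 6 to 24 hours by the source name. They came from a transgenic line with stable expression of CG6683 carrying GFP at its C-terminus, an antibody against GFP was used for the immunoprecipitation (ChIP-seq), and 2 biological replicates, numbered 2 and 3, were each compared with a control alignment. Nothing in the labels says what drives the tagged gene or whether the untagged CG6683 was still present. Because the embryos were used whole, strong occupancy in few cells and weak occupancy in many cannot be told apart, and neuroblasts are a minority of the cells.

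Neuroblasts are the stem cells of the insect central nervous system. Proneural genes encode basic helix-loop-helix (bHLH) activators that bind E-box DNA and give a cluster of ectodermal cells the competence to become neural. Within the cluster, Notch signalling switches on the bHLH repressors of the Enhancer of split complex in all cells but the future neuroblast, which then leaves the epithelium. The neuroblast divides asymmetrically, handing fate determinants such as Prospero, Brat and Numb to the smaller daughter, and passes through an ordered series of temporal factors.

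In all, 4 peak lists were read. The pooled list holds 29984 candidate peaks on the main arms, called on both replicates together, and the optimal list holds the 2964 that passed the authors' reproducibility threshold, which were also the 2964 of highest signal among the pooled candidates. Each replicate has a candidate list of its own, with 29979 peaks for replicate 2 and 30000 for replicate 3. The signal is the authors' own score per peak, in no stated unit, and is used here only to describe and rank peaks within a list. It ran from 171 to 3257 in the optimal list, with a median of 261, and from 28.5 in the pooled list, with a median of 55.3. Read depth is unknown. With 2 replicates of 1 group no test across samples exists, so all comparisons are descriptions, and for the summits described in full the values of both replicates stand beside the pooled value in place of an error. A pooled value given alone carries no measure of its error. The replicate numbers are those of the lists on dm6. On arm 2L, 96.9% of the peak intervals of replicate 2 on dm6 were identical to intervals labelled replicate 3 on the older build dm3, and 0 to those labelled replicate 2, so the number does not identify a culture.

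Taken as a set, these genes had strong peaks about as often as all genes, but the peaks were spread unevenly among them. A summit, the peak's highest point, lay within 500 bp of a transcript start of 4 of the 33 genes in the optimal list (numb, scrt, E(spl)m3-HLH and E(spl)m7-HLH, 12.1%), against 13.3% of all protein-coding genes. Elsewhere in the gene body, 2 genes held an optimal summit (brat and grh, 6.06%), against 5.72%. Within 10 kb on either side it was 12 genes (36.4%), against 41.5%. In 20 of the 33 genes (60.6%) there was no optimal summit in any of these 3 places, against 51.1% of all genes. The 7 Enhancer of split genes, which share summits, made up 2 of the 4 genes at a start and 6 of the 12 within 10 kb. Only 1 of them was among the 20 without. Outside that complex there were 1.71 optimal summits per 100 kb of the genes with their flanks, beside 2.46 for all protein-coding genes. With a window of 200 bp around starts in place of 500 bp, numb alone kept an optimal summit, and within 5 kb in place of 10 kb the count on either side was 7. The shares of all genes at 200 bp and 5 kb were not counted, so these drops cannot be read as particular to the 33 genes.

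Candidates of any strength were found at a smaller share of these genes than of all genes. A pooled candidate lay within 500 bp of a start of 13 genes (39.4%), against 50.5% of all genes. In the gene body the count was 5 genes (15.2%) against 30.1%, and within 10 kb it was 21 genes (63.6%) against 78.6%. Gene length did not differ much between the sets, with a median of 2273 bp for the 33 genes and 2166 bp for all genes. Of the 9 genes over 5 kb long, 5 had a candidate in the body away from starts (55.6%), beside 61.7% of the 3482 genes of that length genome-wide. No candidate in any place was seen at 11 genes (33.3%), against 19.9%. That last count was made after the values had been seen, and it was 6 when 20 kb on either side was searched. The share of all genes at 20 kb was not counted.

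**Figure D1:**
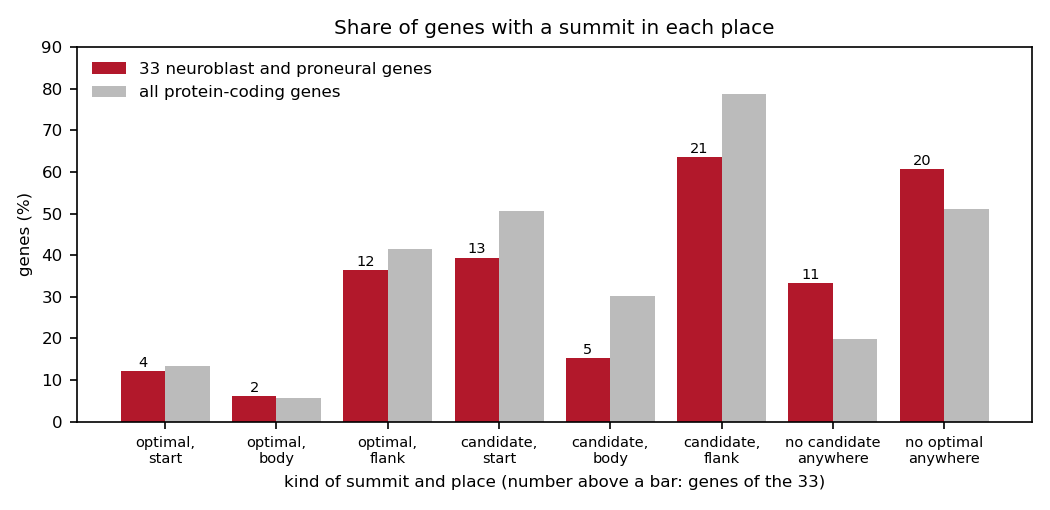
Percentage of genes with a summit in each place, for the 33 genes (red, with the number of genes above each bar) and for all 13945 protein-coding genes (grey), in the optimal and the pooled candidate lists; start means within 500 bp of a transcript start, body the rest of the gene, and flank within 10 kb outside it. The bars are close for optimal summits, and the red bars are lower for candidates in all 3 places.

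The 11 genes without a candidate were ac, sc, l(1)sc and ase, then ato, cato and tap, then sna, esg and wor, and finally mira. They include all 4 genes of the achaete-scute complex, 3 of the 4 atonal relatives and tap, and 3 of the 4 Snail family genes. None of the 7 Enhancer of split genes, the 4 neuroectoderm factors and the 4 neuroblast factors was among them. At the 22 other genes the strongest candidate had a median signal of 285, beside 211 over the 11174 protein-coding genes that had any. The 33 genes are not independent of each other, since neighbours share a stretch of chromosome and 7 of the 22 optimal summits near them were counted for several of the genes.

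**Figure D2:**
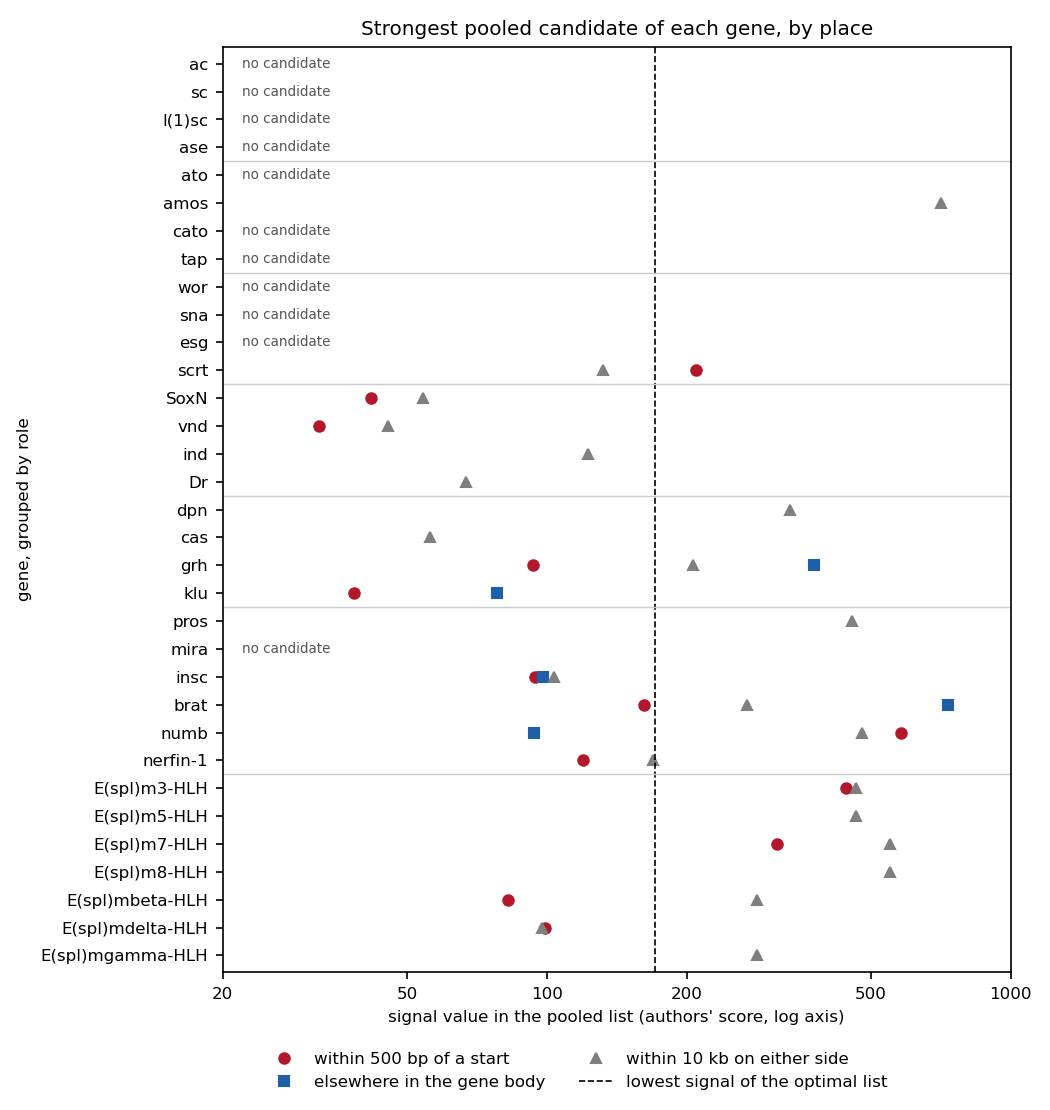
Strongest pooled candidate of each gene by place, with the signal in the pooled list on a log axis; circles are summits within 500 bp of a start, squares are elsewhere in the gene body and triangles are within 10 kb on either side. The dashed line is the lowest signal of the optimal list, 171, and the 11 genes marked as having no candidate include every gene of the achaete-scute complex.

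The achaete-scute complex held no optimal summit and no pooled candidate. Its 4 genes encode proneural activators: ac, sc and l(1)sc act in neural clusters, and ase is switched on in neural precursors. From ac to ase, with 10 kb on either side (X:360031-473176 on dm6, 113.1 kb with 9 protein-coding genes), the count of summits was 0 in the optimal list, 0 among pooled candidates and 0 among the candidates of replicate 2. Replicate 3 had 1, with a signal of 59.3 and rank 7313 of 30000, in an intron of CG32816 at the edge of the interval, 7815 bp upstream of ac. Over the main arms there were 22.4 pooled candidates and 2.21 optimal summits per 100 kb.

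The empty stretch around the complex was 126.3 kb long in the pooled list, 130.9 kb in replicate 2 and 114.5 kb in replicate 3. It began 19.5 kb upstream of ac in the pooled list, 24.4 kb in replicate 2 and 7.82 kb in replicate 3, and ended 16 kb downstream of the start of ase in the pooled list, 15.8 kb in replicate 2 and 16 kb in replicate 3. Stretches as long were not rare, since 9.28% of protein-coding genes lay in a longer one in the pooled list, 7.49% in replicate 2 and 6.5% in replicate 3. The 113.1 kb interval had a GC content of 40.1%, beside 42.2% over the main arms, and contained 0 undetermined bases. Whether base composition had a part in the result was not tested. The edge beyond ase was thus nearly the same in the 3 lists, and the edge upstream of ac ranged from 7.82 kb to 24.4 kb.

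**Figure D3:**
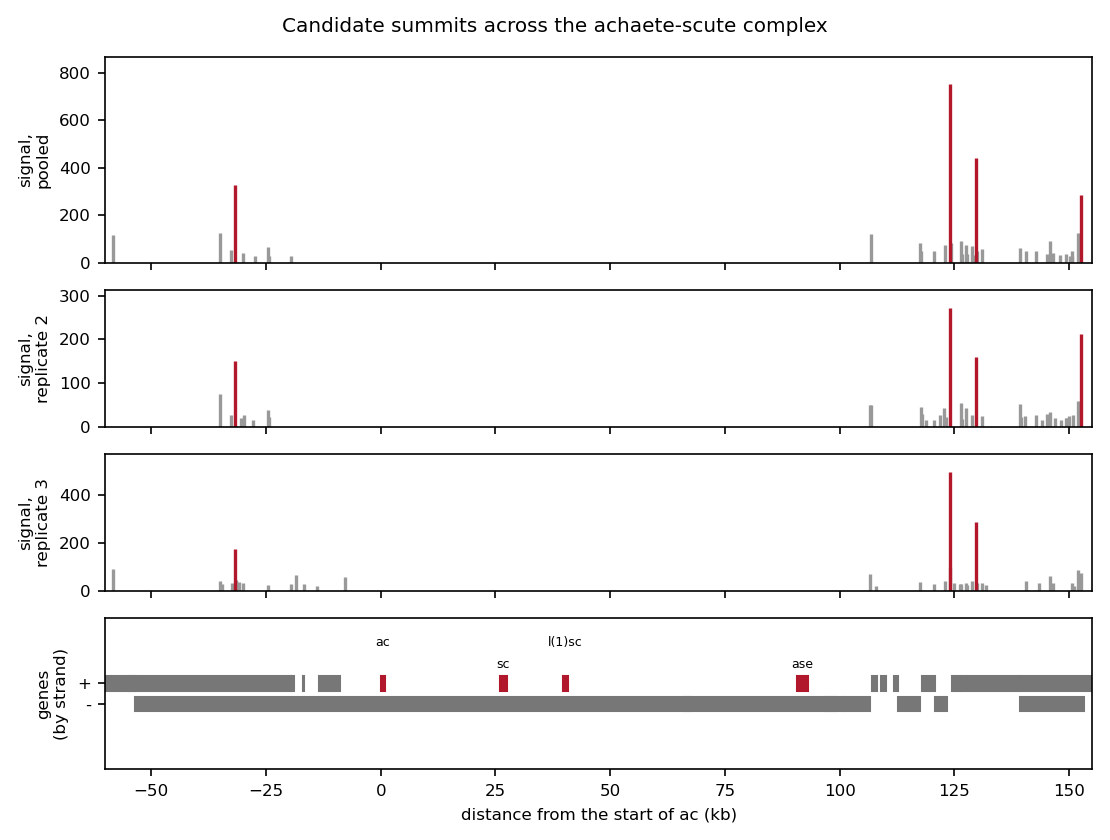
Candidate summits around the achaete-scute complex, with the distance from the start of ac in kb on the horizontal axis and the signal of each summit in the pooled, replicate 2 and replicate 3 lists in the upper panels; red lines are optimal summits (pooled panel) or the 2964 strongest of that replicate, grey lines are weaker candidates, and the lowest panel shows genes by strand with the 4 complex genes in red. No line stands between ac and ase in any list.

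The atonal relatives and tap were likewise poor in peaks. For ato, the proneural gene of chordotonal organs and photoreceptors, no list had a candidate in any place, and the nearest pooled summits lay 13.2 kb upstream and 26 kb downstream of its start. For cato, which acts in sensory precursors, the pooled list had none within 10 kb, whereas the strongest candidate there had a signal of 44.6 in replicate 2 and 37.4 in replicate 3. For tap the corresponding value was 39.4 in replicate 2, with none in replicate 3. These are modest scores in their lists, whose median signals were 29.1 in replicate 2 and 37.6 in replicate 3.

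The exception by count was amos, a proneural gene of olfactory sense organs, with an optimal summit of signal 709 within 10 kb. That summit lay 8220 bp upstream of amos and 108 bp inside CG10413, in its 5' UTR. Its signal was 324 in replicate 2 and 385 in replicate 3. No candidate lay at the start of amos or in its body in any list.

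The Snail family split by position. These genes encode zinc-finger repressors, and sna, esg and wor act together in neuroblasts, while scrt is expressed widely in neural precursors. The neighbours esg, wor and sna lie on arm 2L in an interval of 164.4 kb (2L:15323866-15488260, with 10 kb on either side), which held 0 optimal and 0 pooled candidate summits. Replicate 2 had 4 candidates in it and replicate 3 had 2, none of them among the 2964 strongest of its list. The stretch without a pooled candidate was 220.8 kb, and 3.16% of genes lay in a longer one.

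In the single replicates the stretch around these 3 genes was broken into shorter ones. Around esg and wor it measured 160.5 kb in replicate 2 and 109.1 kb in replicate 3, and around sna 49.3 kb and 49.7 kb. A candidate of signal 45.3 lay near esg in replicate 3, and the strongest near wor had a signal of 33.8 in replicate 2. For sna no list had a candidate in any place.

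By contrast scrt, on arm 3L, had an optimal summit 308 bp upstream of its only annotated start (peak 3L:3983366-3983809). Its signal was 210.1 in the pooled list, rank 2118, 93.9 in replicate 2 and 120.0 in replicate 3. It was therefore a peak of below-median signal within the optimal list, and it was present in both replicates within 200 bp. The 201 bases centred on the summit (chr3L:3983488-3983688, plus strand, Release 6 genome) are printed because this was the only Snail family start with an optimal summit. In this and the other sequences capitals mark an E-box, CANNTG, or the core word of Suppressor of Hairless, TGGGAA, on either strand, and this window has neither.
scrt: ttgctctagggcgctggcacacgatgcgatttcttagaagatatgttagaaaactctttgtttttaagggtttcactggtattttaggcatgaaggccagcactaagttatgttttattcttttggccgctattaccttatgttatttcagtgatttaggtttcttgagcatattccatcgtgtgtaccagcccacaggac

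The neuroectoderm factors had weak candidates only, and none was optimal. SoxN, a SoxB factor of the neural primordium, had a candidate 4 bp upstream of its start with a signal of 41.7 in the pooled list, and the strongest candidates within 500 bp of the start had signals of 19.5 in replicate 2 and 22.3 in replicate 3. The homeobox genes vnd, ind and Dr pattern the ventral, intermediate and dorsal columns. The only pooled candidate at a start of vnd had a signal of 32.3, with no candidate within 200 bp of it in either replicate. The strongest start candidate of replicate 2, of 30.7, lay at the other of the 2 annotated starts, and replicate 3 had none at either. For ind and Dr no pooled candidate lay at the start or in the body, and the strongest within 10 kb had signals of 123 and 66.8. The former lay in an intron of Sytbeta, with 19.3 in replicate 2 and 95.7 in replicate 3 within 200 bp. The latter had 42.7 in replicate 2 and no candidate within 200 bp in replicate 3. At any position within 10 kb, the strongest candidates of replicates 2 and 3 had signals of 65.4 and 100 for ind. For Dr they had 42.7 and 46.7. All these pooled signals are below 171, the lowest of the optimal list.

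Among the 4 neuroblast factors, grh alone had an optimal summit inside the gene. It encodes Grainyhead, a late temporal factor in neuroblasts and a regulator of the epidermal barrier. The summit lay in an intron, 2068 bp from the nearest of its 5 annotated starts (peak 2R:17804829-17805089), with a signal of 377 in the pooled list, rank 739, 169.9 in replicate 2 and 202 in replicate 3. The 5 candidates within 500 bp of its starts were weaker, from 29.9 to 93.4 in the pooled list. A pair of optimal summits lay past its far end, of signal 206 and 187 in the pooled list, 83.2 and 72.9 in replicate 2, and 118 and 111 in replicate 3. The stronger was 97 bp from the start of olf186-M, and both were in an intron of Orai.

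Deadpan (dpn), a bHLH repressor that keeps neuroblasts self-renewing, had an optimal summit of signal 335 at 9241 bp upstream. It was nearer to the start of pnut, at 3718 bp, and its signal was 88.9 in replicate 2 and 237 in replicate 3. The zinc-finger gene klu had candidates of up to 38.4 at a start and 78.2 in the body. The former had no candidate within 200 bp in replicate 2 and 36.4 in replicate 3, and the latter had 19.0 and 58.5. The late temporal factor cas had none in either place. Its strongest pooled candidate within 10 kb scored 55.9, with 19.5 in replicate 2 and 34.8 in replicate 3. Stronger candidates within 10 kb of cas, of 61.6 in replicate 2 and 102 in replicate 3, lay at other positions. In the pooled list neither klu nor cas reached 171, the lowest optimal signal.

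**Figure D4:**
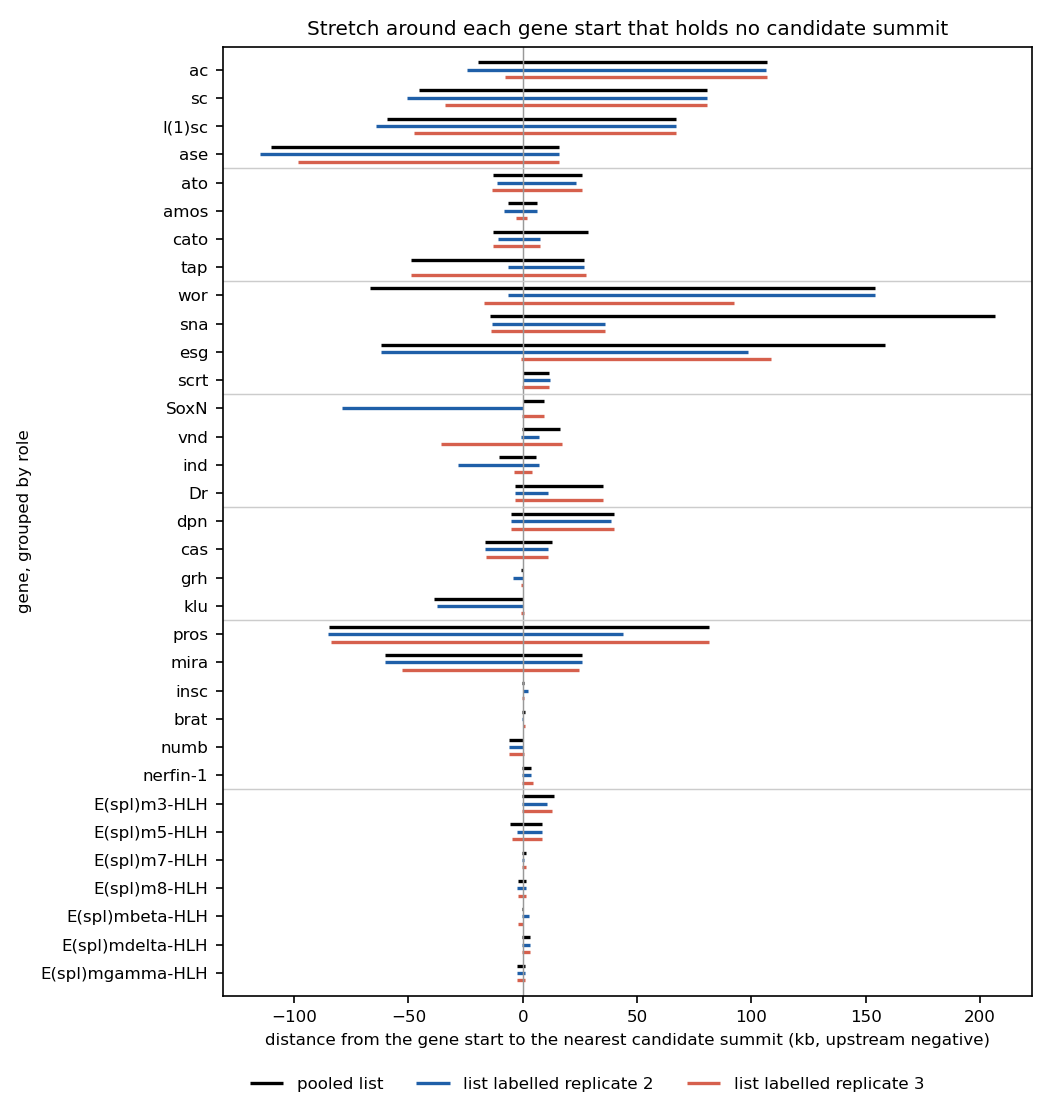
Stretch around the start of each gene that holds no candidate summit, as the distance in kb to the nearest candidate on either side (upstream negative), in the pooled list (black), replicate 2 (blue) and replicate 3 (orange-red). The achaete-scute genes, esg, wor, pros and mira show long bars in every list, and most Enhancer of split genes have short bars.

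Stretches without a candidate were longer around these genes than around all genes at the median. The median was 16.6 kb for the 33 genes and 6.78 kb for all genes in the pooled list, 18.5 and 5.47 kb in replicate 2, and 13 and 6.41 kb in replicate 3. Stretches over 20 kb held 16 of the 33 genes in each list (48.5%), beside 38.5%, 35.7% and 33.7% of all genes. Both the medians and these counts take neighbours in the same stretch as separate genes. In the pooled list the achaete-scute genes share a stretch of 126.3 kb, and esg, wor and sna share a stretch of 220.8 kb. In all 3 lists at once, 6 genes (sc, l(1)sc, ase, ato, sna and mira, 18.2%) had no candidate in any place, against 14.3% of all genes.

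The genes of asymmetric division and daughter fate differed widely among themselves. Poorest in peaks were mira, whose product carries Prospero and Brat into the daughter cell, and pros itself, the homeobox gene that ends self-renewal. No list had a candidate at mira, and the stretch around its start was 86.3 kb long in the pooled list, 86.2 kb in replicate 2 and 77.4 kb in replicate 3. The gene pros spans 79148 bp with 4 starts, and no pooled candidate lay at a start or in the body. Replicate 2 had 1 at a start, with a signal of 38.0, and replicate 3 had none. The optimal summit counted for pros, of signal 454 (199 in replicate 2 and 241 in replicate 3), lay 2345 bp beyond its far end and 75 bp upstream of Irbp.

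For insc, whose product links the spindle to the apical cortex, the start candidate had a signal of 94.5 in the pooled list, 37.9 in replicate 2 and 76.0 in replicate 3. Its 5 body candidates reached 98.2, and all of them also lie in introns of sktl, so they cannot be assigned to either gene. The zinc-finger gene nerfin-1, which maintains neuronal differentiation, had a candidate 401 bp upstream of its start with a signal of 119 in the pooled list and 86.8 in replicate 3, and with no candidate within 200 bp of it in replicate 2. The strongest candidate within 10 kb of nerfin-1 lay in an intron of Glut1, whose start was the nearest, with a signal of 169 in the pooled list, 65.8 in replicate 2 and no candidate within 200 bp in replicate 3. Its pooled signal was just below the lowest of the optimal list, 171. None of the insc or nerfin-1 candidates was in the optimal list.

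The RNA-binding repressor gene brat and the Notch inhibitor gene numb carried the strong summits of the group. In brat, a gene of 45943 bp with 3 starts, 25 pooled candidates lay in the body away from starts and 3 near starts. An intronic summit 699 bp upstream of an internal start (peak 2L:19164980-19165328) had a signal of 731 in the pooled list, rank 198, 368 in replicate 2 and 359 in replicate 3. This was the highest signal among the 22 optimal summits at or near the 33 genes. The other optimal summits of the gene body, both intronic, had pooled signals of 213 and 185, with 97.3 and 78.5 in replicate 2 and 115 and 109 in replicate 3.

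The brat values also show where the threshold fell. Its strongest start candidate, 46 bp downstream of a start in a 5' UTR, had a pooled signal of 162 and was just outside the optimal list. The summit of signal 174 at the start of the neighbour AsnRS, 1782 bp upstream of brat, was just inside it, although replicate 2 had no candidate within 200 bp and replicate 3 had a candidate of signal 143. Another summit of signal 269.8 lay at the start of l(2)37Cd.

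In numb the optimal summit lay 144 bp upstream of the second of its 2 annotated starts, inside an intron of the longer transcripts (peak 2L:9449530-9449804). Its signal was 580.4 in the pooled list, rank 310, and 334 in replicate 3. In replicate 2 the nearest candidate had a signal of 101, but a stronger one of 252 lay 256 bp upstream of the same start. Both replicates thus had a strong candidate upstream of this start, at slightly different positions. Another 10 candidates in the gene body were weak, with signals of at most 93.7, and the optimal summit of signal 478 near numb lay at the start of its neighbour scat, 64 bp away, with 139.7 in replicate 2 and 331 in replicate 3. The windows of 201 bases around the strongest brat summit (chr2L:19165068-19165268) and the numb summit (chr2L:9449586-9449786), plus strand, are printed as the sequences under the highest signals inside these genes.
brat: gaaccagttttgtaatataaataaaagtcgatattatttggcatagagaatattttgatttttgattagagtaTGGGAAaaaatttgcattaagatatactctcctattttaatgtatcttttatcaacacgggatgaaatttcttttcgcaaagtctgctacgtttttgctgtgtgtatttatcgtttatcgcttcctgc
numb: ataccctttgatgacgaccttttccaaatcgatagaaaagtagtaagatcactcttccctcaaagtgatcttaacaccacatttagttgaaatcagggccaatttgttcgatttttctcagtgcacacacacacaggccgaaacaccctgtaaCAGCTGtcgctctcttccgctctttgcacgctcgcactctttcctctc

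The brat window has 1 TGGGAA word, which begins 27 bases before the summit, and no E-box. The numb window has 1 E-box, CAGCTG, which begins 53 bases after the summit. GAGAG occurs in both windows when both strands are read, and the windows differ in base composition, with a GC content of 29.9% for brat and 44.8% for numb. A word in a window is a description of letters and not evidence of a bound site.

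The Enhancer of split complex was rich in peaks. Its bHLH genes encode repressors that are switched on by Notch and oppose the proneural activators, and they stand among Bearded family genes and end at gro, the gene of their corepressor Groucho. From E(spl)mdelta-HLH to E(spl)m8-HLH with 10 kb on either side (3R:25987621-26051008, 63.4 kb with 16 protein-coding genes), there were 8 optimal summits, or 12.6 per 100 kb, beside 2.21 over the main arms. The upper 50% of the optimal list by signal held 5 of the 8. Pooled candidates numbered 27, or 42.6 per 100 kb beside 22.4. The replicate lists held 27 and 25 candidates, and in each of them 7 were among the 2964 strongest of the list.

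Compared with the 113.1 kb of the achaete-scute interval, the difference was 8 optimal summits against 0 and 27 candidates against 0. The GC content was 44.4% here and 40.1% there. All 33 genes with 10 kb on either side covered 883 kb, with 2.49 optimal summits and 19.3 candidates per 100 kb. Without the Enhancer of split interval the values were 1.71 and 17.5, beside 2.46 and 24.7 for all protein-coding genes taken in the same way.

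**Figure D5:**
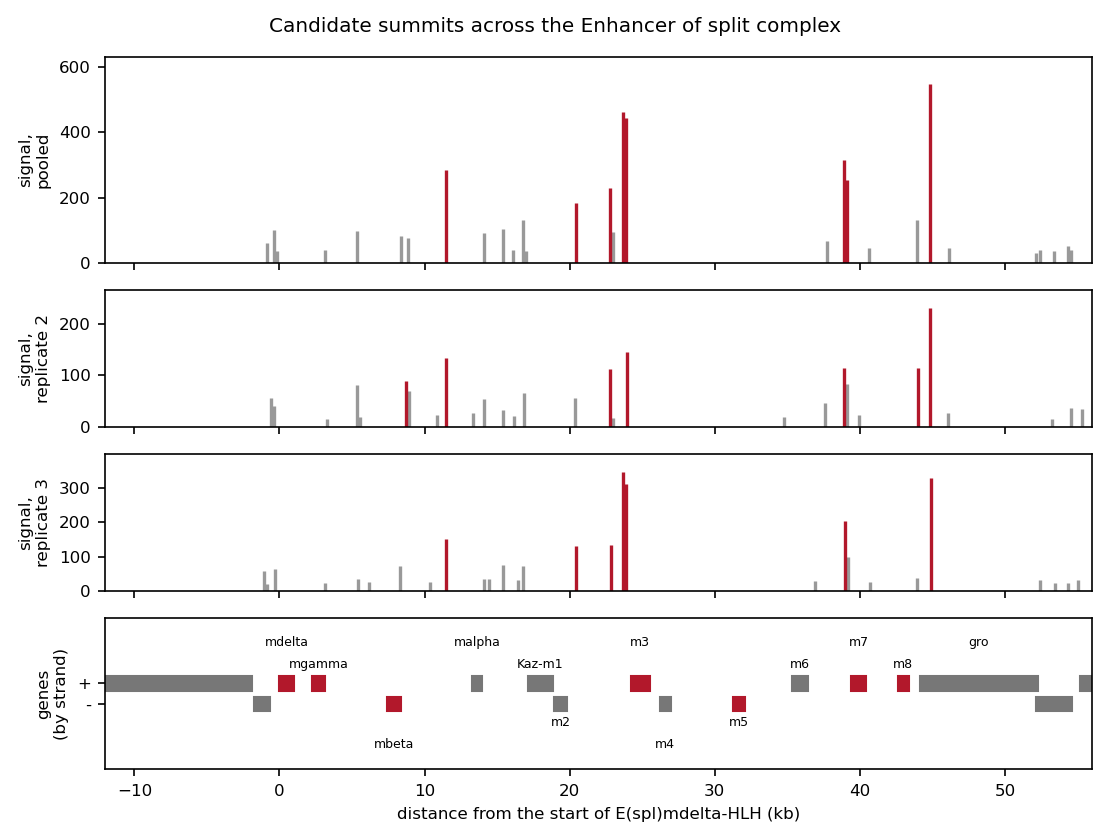
Candidate summits across the Enhancer of split complex, with the distance from the start of E(spl)mdelta-HLH in kb on the horizontal axis and the signal of each summit in the pooled, replicate 2 and replicate 3 lists in the upper panels; red lines are optimal summits (pooled panel) or the 2964 strongest of that replicate, grey lines are weaker candidates, and the lowest panel shows genes by strand with the bHLH genes in red. The tallest lines stand upstream of m3 and m7 and at gro, and those around mdelta, mgamma and mbeta are lower.

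The strong summits were placed unevenly along the complex. Upstream of E(spl)m3-HLH, 4 optimal summits followed each other, of which the first was nearest to the Bearded family gene E(spl)m2-BFM. The summit 316 bp upstream of the m3 start (peak 3R:26021407-26021637) had a signal of 442 in the pooled list, rank 564, 145 in replicate 2 and 311 in replicate 3. The summit 537 bp upstream had a pooled signal of 463 and 345 in replicate 3, with no candidate within 200 bp in replicate 2. The others, with pooled signals of 229 and 182, were 1418 bp upstream of m3 (113 in replicate 2 and 135 in replicate 3) and 576 bp upstream of m2 (56.5 and 131). Replicate 2 thus had a candidate summit within 200 bp of the nearer of the strongest pair of positions and not of the farther. Its peak there (3R:26021333-26021756) nevertheless overlapped the farther pooled peak (3R:26021140-26021388).

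Upstream of E(spl)m7-HLH there was a pair of optimal summits. The summit 490 bp upstream (peak 3R:26036487-26036649) had a signal of 313 in the pooled list, rank 1077, 115 in replicate 2 and 202 in replicate 3. The summit 273 bp upstream (peak 3R:26036685-26036818) had 255, rank 1555, with 82.7 in replicate 2 and 97.8 in replicate 3. The latter was below the 2964 strongest of both replicate lists, with ranks 3012 and 3299. The highest signal of the interval, 548, belonged to a summit 160 bp upstream of a gro start, inside a gro intron, with 231 in replicate 2 and 327 in replicate 3.

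The sequences around the m3 and m7 summits are printed because these are the bHLH genes of the complex with an optimal summit at the start. Each is 201 bases on the plus strand, for m3 chr3R:26021407-26021607 and for m7 chr3R:26036448-26036648 and chr3R:26036665-26036865. Capitals again mark CANNTG and TGGGAA.
E(spl)m3-HLH: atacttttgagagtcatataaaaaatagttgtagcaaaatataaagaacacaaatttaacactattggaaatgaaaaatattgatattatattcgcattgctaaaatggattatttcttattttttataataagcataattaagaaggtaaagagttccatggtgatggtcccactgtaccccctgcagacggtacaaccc
E(spl)m7-HLH, 490 bp upstream: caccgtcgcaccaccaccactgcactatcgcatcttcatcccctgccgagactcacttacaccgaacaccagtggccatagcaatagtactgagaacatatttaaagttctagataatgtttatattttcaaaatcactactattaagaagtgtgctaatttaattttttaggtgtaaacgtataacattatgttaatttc
E(spl)m7-HLH, 273 bp upstream: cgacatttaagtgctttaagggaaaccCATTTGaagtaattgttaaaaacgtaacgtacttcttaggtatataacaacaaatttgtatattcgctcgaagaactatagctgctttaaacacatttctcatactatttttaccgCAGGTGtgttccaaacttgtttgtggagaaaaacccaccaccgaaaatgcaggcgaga

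Neither the m3 window nor the first m7 window contains an E-box or TGGGAA. The second m7 window contains CATTTG, from 73 bases before the summit, and CAGGTG, from 43 bases after it. The first m7 window contains an N-box, CACNAG. The m3 window is AT-rich, with a GC content of 29.9%, and the m7 windows have 36.8% and 36.3%.

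The other 5 bHLH genes of the complex had no optimal summit at a start. The strongest pooled start candidate of E(spl)mbeta-HLH, 50 bp downstream of the start, had a signal of 82.6, with 72.4 in replicate 3. Replicate 2 had no candidate within 200 bp of it, and its own strongest at this start, of 89.0, lay 295 bp upstream. The strongest pooled start candidate of E(spl)mdelta-HLH had 99.1, with 41.5 in replicate 2 and 64.7 in replicate 3. That summit was nearer to the start of CG43116, at 223 bp, than to the mdelta start, at 402 bp. At E(spl)mgamma-HLH, E(spl)m5-HLH and E(spl)m8-HLH no pooled candidate lay at the start or in the body. The optimal summits counted within 10 kb of E(spl)mgamma-HLH and E(spl)mbeta-HLH were a shared summit of signal 285, nearest to E(spl)malpha-BFM at 1765 bp. Those of E(spl)m5-HLH and E(spl)m8-HLH were the summits of m3, m7 and gro already described.

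Seen over all 33 genes, many of the strong summits lay nearest to other genes. Of the 22 optimal summits in any of the 3 places, 9 were nearest to a start among the 33 genes and 13 to a start of another gene, 7 of them within 500 bp of it. The 5 optimal summits within 500 bp of a start of the 33 genes all lay upstream of it. Signals of the 22 ran from 174 to 731, with a median of 299, beside 261 for the whole optimal list.

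Replicates shared most of these summits. A candidate lay within 200 bp in both replicate lists for all 9 optimal summits at a start or in a body, for 20 of the 22 (90.9%), and for 97.4% of all optimal summits. The exceptions were the summits 537 bp upstream of m3 and at AsnRS, both without a candidate within 200 bp in replicate 2. Within 500 bp, both replicate lists had a candidate for 22 of the 22. Where both replicates had a candidate within 200 bp, the signal was higher in replicate 3 for 19 of 20. Of these 20, 15 were among the 2964 strongest of both lists, beside 1878 of the 2886 such summits in the whole optimal list. The higher scores in replicate 3 were general, since 2393 of 2886 optimal summits present in both lists had them too.

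The 4 genes with an optimal summit at a start also had a strong summit there in each replicate's list. The optimal list is drawn from both replicates together, so the lists are not independent of each other. The 2964 strongest candidates of replicate 3 gave the same 4 genes as the optimal list, with 12.8% of all genes called. Those of replicate 2 gave 6, adding brat and E(spl)mbeta-HLH, with 14.1% of all genes called. In brat the added summit had a signal of 98.8, rank 2165, and lay 143 bp upstream of a start. In all 3 versions brat and grh were the genes with a strong summit in the body.

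Words known from proneural and Notch targets had shares around these summits that were mostly close to those of all optimal summits. Within 100 bp of a summit, on either strand, an E-box (CANNTG) was found at 12 of the 22 optimal summits (54.5%), at 59.2% of all optimal summits and at 62.6% of all candidates. Among the 9 at a start or in a body it was 3. The forms CAGCTG and CAGGTG, which are also counted as CANNTG, were each found at 2 of 22 (9.09%), beside 8.43% and 5.06% of all optimal summits. CACGTG, a further E-box form, was found at 0 of 22, beside 2.43%. TGGGAA was found at 2 of 22 (9.09%), beside 9.24%, and the N-box CACNAG at 5 (22.7%), beside 19.6%.

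The word GAGAG was found at 8 of 22 (36.4%), beside 23.5% of all optimal summits and 23.8% of candidates, and ACAGTG at 5 (22.7%), beside 18.2% and 11.2%. Within 50 bp neither share was above that of all optimal summits, with GAGAG at 2 of 22 (9.09%), beside 9.68%, and ACAGTG at 0 of 22, beside 6.75%. With 22 windows these shares rest on a handful of sequences. Mean GC content was 33% around the 22 summits, 35.5% around all optimal summits and 40% around all candidates.

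Related genes that are not among the 33 gave counts on either side of the shares for all genes. Of 9 partners and antagonists of the proneural proteins, 3 had an optimal summit at a start and 1 in the body, beside 13.3% and 5.72% of all genes. The strongest at starts had pooled signals of 308 for chn, a zinc-finger gene of sensory organ development, 186 for emc, which encodes an inhibitor that binds proneural proteins, and 185 for hry, the bHLH repressor Hairy. Of 20 genes of the Notch pathway and the Bearded family, 3 had an optimal summit at a start and 3 in the body. The strongest were in mam, the Notch coactivator gene (733, in the body), gro (548) and neur, a ubiquitin ligase gene of Delta trafficking (499.9).

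Of 16 further genes of the asymmetric division machinery, 2 had an optimal summit at a start and 5 in the body. The shares of all genes were 13.3% and 5.72%. Gene length was not compared for any of the related lists. The strongest summits were in baz, a polarity gene (signal 809.7, in the body), cnn, a centrosome gene (369, at a start), and loco, a regulator of G protein signalling (295, in the body). Of 20 genes grouped here as temporal and spatial identity factors, 1 had an optimal summit at a start. It was the Sox gene Sox14, with a signal of 1067 in the pooled list, 499.9 in replicate 2 and 597 in replicate 3. No pooled candidate in any place was found for 0, 4, 1 and 7 genes of these 4 lists in that order, out of 9, 20, 16 and 20 genes, beside 19.9% of all genes. The genes grouped as identity factors thus had 16 of 20 without an optimal summit in any place, and the asymmetric division machinery 5 of 16, beside 51.1% of all genes.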

How the data were processed

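Peaks from a GFP immunoprecipitation from 2 replicates of CG6683-GFP embryos were analysed on dm6. Per the labels, chromatin was sonicated to 200 to 800 bp. Each peak's signal value was taken as the authors deposited it, and how they normalized it is not stated. Per the file names and labels, the optimal list is what remained of the pooled candidates after IDR (irreproducible discovery rate) thresholding, and all 2964 of its main-arm peaks were the strongest 2964 pooled candidates. Not given in the sources used here are the aligner, the peak caller and the IDR threshold. Read counts and the control alignments were not analysed here, so depth is unknown. The age label was not interpretable, and the age comes from the source name. The dm3 lists served only to compare replicate numbers.

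Genes and starts came from Ensembl release 115 (BDGP6.54), and sequences from the Release 6 genome, in dm6 coordinates, 1-based. A summit was placed at a start when within 500 bp of any transcript start, in the body when elsewhere in the gene, and in the flank when within 10 kb outside it. A replicate's value beside a pooled summit is that of its candidate with the nearest summit within 200 bp. Where the text names the strongest candidate of a replicate, the value is that of its own strongest in that place. Words were sought within 100 bp of summits on both strands. All 33 genes are accounted for, values in every list are given for those with an optimal summit at a start or in the body, and 3 genes at most are named from each of 4 related lists (65 genes, 4 of them matched by a newer symbol). The genes, the lists and the values set out here were chosen with earlier results of these data known. No test was possible with 1 group of 2 replicates. Alternatives were windows of 200 and 1000 bp, gene starts alone, flanks of 5 and 20 kb, the upper 50% of optimal peaks, each replicate's list alone, peak overlap in place of summits, complexes without flanks, matching within 100 and 500 bp, and words within 50 bp. The placing of summits was tested on simulated data. The software was pandas 2.3.3 and NumPy 2.4.6 under Python 3.11.15, with SciPy 1.17.1 for an interval and matplotlib 3.10.9 for figures.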

Additional observations from a re-analysis of the deposited data

How the results depend on the processing

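Of 41 alternatives, 36 left the count within 1.5 times of the value reported and 5 did not. Some of the 36 could not have differed. With 0 optimal summits in the achaete-scute interval, a part of the interval or of the optimal list also gives 0. Genes with an optimal summit near a start fell from 4 to 1 with a window of 200 bp, and those with a pooled candidate there from 13 to 8. Genes with an optimal summit within 10 kb were 12, and 7 within 5 kb. The upper 50% of optimal peaks by signal left 5 of the 8 summits of the Enhancer of split complex. Genes without any pooled candidate fell from 11 to 6 when 20 kb on either side was searched, an alternative added after the data had been seen. With either replicate's list alone, genes with a strong summit at a start were 4 to 6, in the body 2 and within 10 kb 12, the achaete-scute complex had 0 strong summits and the Enhancer of split complex 7, and 8 genes had no candidate. The cause was not tested, beyond that a shorter window or list holds fewer summits. Shares of all genes were not counted for the changed windows and flanks, nor for genes without a candidate in a single replicate's list. No paired analysis was possible because there is 1 group. Depth is unknown, so whether weaker occupancy could have been seen at the genes without a candidate cannot be told from these lists.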
